A study of Mus musculus with 16 samples.

Results

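Molecular chaperones of the heat shock and secretory pathway families were followed in RNA of whole lungs from mice of an experimental asthma study. Members were the genes whose array symbol begins with the names of the heat shock proteins (Hspa, Hspb, Hspd, Hspe, Hsph and Hsp90), the J proteins (Dnaj), the protein disulfide isomerases (Pdia), the CCT chaperonin, the Sec61 translocon, calreticulin, calnexin, Hyou1, the BAG cochaperones or the FK506 binding proteins (Fkbp). They numbered 80 genes with 121 probe sets, of 9866 genes that could be named. A further 30 genes with such symbols lay on labels that could not be tied to values and were not used. Of the 80 members, 75 passed the filter on dim probe sets (over log2 4 on at least 4 arrays), and Cct6b, Dnajb3, Dnajc5b, Hspa1l and Hspb11 did not. The 16 arrays formed 4 groups of 4. Mice of a line titled BALB-RAG received ovalbumin (OVA) or phosphate-buffered saline (PBS), and mice of the inbred strain BALB/c received OVA or PBS, with lungs taken on day 22, 1 day after the last exposure. The labels give neither the altered Rag gene nor the age or sex of the mice. They do not say whether replicates are different animals, so the spread behind each p-value may be technical.

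Chaperones bind unfolded proteins and help them to fold. In the cytosol, HSP70 proteins work in cycles with J proteins, which deliver clients, and HSP110 proteins, which exchange nucleotide; HSP90 completes the folding of many signalling proteins. Several of these genes are transcribed strongly when the heat shock factor Hsf1 is active. Secreted and membrane proteins fold in the endoplasmic reticulum (ER), which they enter through the Sec61 channel, and where the HSP70 protein Hspa5 (BiP), the HSP90 protein Hsp90b1, disulfide isomerases and lectin chaperones act on them. Cells that secrete much protein, such as plasma cells and goblet cells, hold high levels of the ER set, and the unfolded protein response raises it further.

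Promoters of 4 members whose levels the results below turn on are shown because they carry short motifs by which these genes are known to be induced. All are 300-base windows around an annotated gene start from RefSeq (GRCm38.p6) and run 5′ to 3′. Capitals in Hspa1b (chr17:34959189-34959488, minus strand) mark a pair of facing heat shock units, GAANNTTC. Capitals in Hsph1 (chr5:149636266-149636565, minus strand, the more downstream of its 2 listed starts) mark a heat shock element of 3 alternating units, TTC and GAA in turn, with any 2 bases between neighbours. Capitals in Hspa5 (chr2:34771840-34772139, plus strand) and Pdia6 (chr12:17266339-17266638, plus strand) mark the ER stress element, CCAAT and CCACG with any 9 bases between them.
Hspa1b: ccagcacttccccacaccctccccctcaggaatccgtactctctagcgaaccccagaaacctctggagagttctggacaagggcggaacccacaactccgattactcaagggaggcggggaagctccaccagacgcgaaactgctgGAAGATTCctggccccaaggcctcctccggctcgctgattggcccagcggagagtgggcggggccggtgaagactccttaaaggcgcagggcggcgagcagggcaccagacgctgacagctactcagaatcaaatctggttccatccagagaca
Hsph1: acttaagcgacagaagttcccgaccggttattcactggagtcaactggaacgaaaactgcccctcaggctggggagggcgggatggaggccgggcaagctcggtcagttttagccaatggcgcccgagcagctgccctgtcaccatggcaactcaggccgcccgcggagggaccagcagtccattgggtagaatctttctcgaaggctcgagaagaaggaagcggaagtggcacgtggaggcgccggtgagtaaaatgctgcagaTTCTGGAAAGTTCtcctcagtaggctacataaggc
Hspa5: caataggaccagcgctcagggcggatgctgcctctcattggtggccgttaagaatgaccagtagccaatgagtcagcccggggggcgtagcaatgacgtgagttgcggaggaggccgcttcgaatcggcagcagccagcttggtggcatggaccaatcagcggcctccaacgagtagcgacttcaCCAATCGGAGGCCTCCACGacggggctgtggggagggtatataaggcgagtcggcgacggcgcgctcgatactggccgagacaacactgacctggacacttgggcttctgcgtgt
Pdia6: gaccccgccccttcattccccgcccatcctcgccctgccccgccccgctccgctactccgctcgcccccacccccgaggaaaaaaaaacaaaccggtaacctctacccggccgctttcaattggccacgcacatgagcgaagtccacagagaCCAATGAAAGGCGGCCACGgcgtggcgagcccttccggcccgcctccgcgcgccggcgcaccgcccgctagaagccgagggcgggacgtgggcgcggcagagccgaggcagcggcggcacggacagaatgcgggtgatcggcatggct

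Both strands were searched, and matches may overlap. The shown matches begin at −104 from the gene start in Hspa1b, 15 in Hsph1, −65 in Hspa5 and −98 in Pdia6. Promoters were listed for 65 of the 80 members. The 3-unit heat shock element was present in 4 of them, Dnajb6, Hspd1, Hspe1 and Hsph1, or 6.15%, against 0.662% of 27025 genes with a listed promoter. The ER stress element was present in 6, Calr, Canx, Dnajc3, Hsp90b1, Hspa5 and Pdia6, or 9.23%, against 0.137% of those genes. The pair of units is contained in the 3-unit element and is common: 18 of 65 members (27.7%) and 17.0% of genes held it. Hspd1 and Hspe1 both lie on chromosome 1, and whether their windows share an element was not checked. A match describes the letters only.

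Several facts of the data set bear on every result. The probe set labels of the deposited table stood beside values of other probe sets in long stretches, and every gene name used here rests on a realignment that no document of the submitters describes. After it, 29 pairs of probe sets of the same member gene had a median correlation of 0.874 across arrays, against −0.033 for 15 pairs with labels as deposited. With the second of the 3 label ranges read 47 rows above instead of 47 below, 25 member pairs had 0.79. Member pairs thus separate these 2 readings little. The reading used was chosen by correlations of this kind over all genes, so the figure is not independent of that choice. Lung identity was clear: Sftpc, the surfactant protein of alveolar type 2 cells, read 14.00 to 14.55 on the log2 scale on all 16 arrays. The arrays titled BALB-RAG went partly against their title. Cd3d, a T cell receptor subunit, read 2.50, 7.03, 2.32 and 2.38 after OVA (replicates 1 to 4) and 4.88 to 5.93 after PBS on those arrays, against 6.88 to 8.45 and 4.98 to 6.15 in BALB/c. Replicate 2 of BALB-RAG after OVA and all PBS arrays of that title thus carried T cell transcripts. Groups were kept as titled. Rag2 read 2.84 to 4.20 on all arrays, near background, and checked nothing. Finally, replicates 1 and 2 stood apart from replicates 3 and 4 in every group: deviations from group means correlated with a median of 0.308 between arrays of the same set and −0.316 between sets. In whole lung, fewer cells of a type and less RNA per cell cannot be told apart.

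The largest differences among members lay between the lines, in cytosolic chaperones that heat stress induces. After PBS, 9 of 75 tested members were lower on arrays titled BALB-RAG than in BALB/c and 0 were higher (limma, Benjamini-Hochberg adjusted p under 0.05 over 7276 genes), or 12% of members; over all tested genes 3.9% were called, 1.97% higher and 1.94% lower. Of the 9, all but Hspa5 were cytosolic. The median difference of the members was −0.16 on the log2 scale, against −0.01 over all tested genes, and 20 of 75 lay above 0.

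Hspa1b, the stress-inducible HSP70, read 7.79, 8.63, 8.74 and 7.96 (log2 intensity, replicates 1 to 4) in BALB-RAG after PBS, against 11.17, 11.60, 11.99 and 11.68 in BALB/c after PBS. The groups were far from overlapping. The log2 difference was −3.33 ± 0.44 (SE, n = 4 per group, limma adjusted p = 0.000632), that is 0.0996 of the BALB/c level. Hspa1b has a near-identical neighbour, Hspa1a, which lay on no usable label, so signal from either gene may enter this probe set; a second Hspa1b probe set differed by −3.62. Hsph1, the inducible HSP110 exchange factor, read 8.13, 8.54, 9.08 and 8.69 in BALB-RAG after PBS, against 10.31, 10.87, 11.13 and 11.07 in BALB/c after PBS. Its groups did not overlap either, and the difference was −2.23 ± 0.26 (limma adjusted p = 0.000251).

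Their J protein partners were lower as well. Dnaja1 read 10.17, 10.30, 10.16 and 10.30 in BALB-RAG after PBS, against 11.49, 11.57, 11.48 and 11.48 in BALB/c after PBS, a difference of −1.27 ± 0.18 (limma adjusted p = 0.00132). Each group was tight and they did not overlap. Dnajb1, which stimulates the HSP70 ATPase, read 7.95, 8.33, 8.41 and 8.41 on the PBS arrays titled BALB-RAG, against 9.31, 8.85, 10.19 and 9.81 in BALB/c after PBS (−1.26 ± 0.26, adjusted p = 0.0123). The spread lay mostly in BALB/c. Dnaja4 differed by −0.99 ± 0.20 (adjusted p = 0.0104).

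Hsp90aa1, the inducible cytosolic HSP90, read 11.32, 11.21, 11.58 and 11.64 in BALB-RAG after PBS, against 12.26, 12.62, 12.50 and 12.47 in BALB/c after PBS (−1.03 ± 0.13, limma adjusted p = 0.000353). Hspa4l, a cytosolic HSP110 relative, differed by −1.19 ± 0.14 (adjusted p = 0.000252) and Hspa8, the constitutive HSP70, by −0.60 ± 0.13 (adjusted p = 0.0165). In both genes all 4 arrays titled BALB-RAG lay below all 4 BALB/c arrays. The call of Hspa8 was lost without BALB/c PBS replicate 2 (adjusted p = 0.0558). The 9 genes were picked by their call, and the share of all genes without overlap was not counted. Their groups did not overlap, so the sign of the difference within each replicate set was fixed in advance. Its size in replicates 1 and 2 and in replicates 3 and 4 was −3.17 and −3.48 for Hspa1b. For Hsph1 it was −2.26 and −2.21. With a term for these sets 17 members were called, 2 higher and 15 lower, or 22.7% of members against 8.73% of all tested genes.

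**Figure D1:**
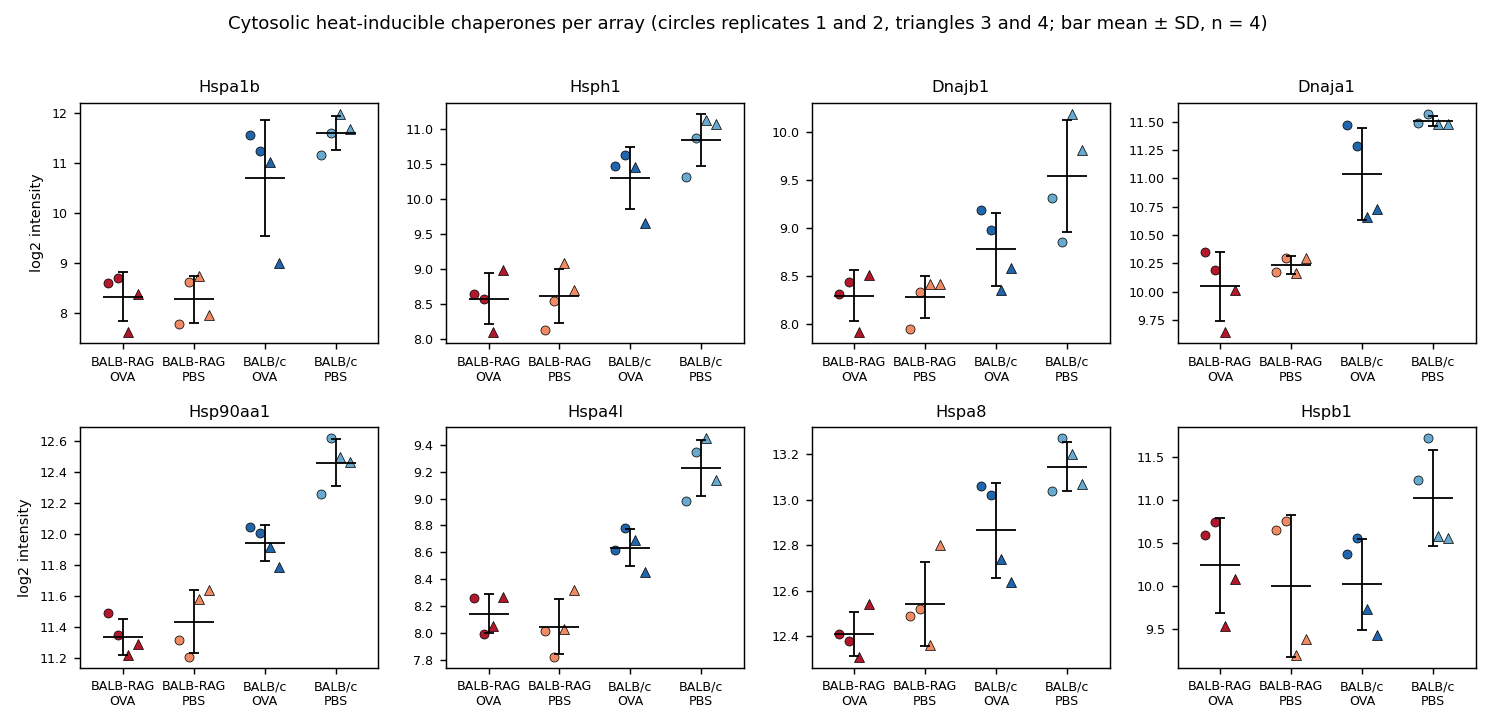
Log2 intensity of 8 cytosolic chaperones on each array (circles, replicates 1 and 2; triangles, replicates 3 and 4), with group mean ± SD (n = 4); groups run BALB-RAG OVA, BALB-RAG PBS, BALB/c OVA, BALB/c PBS. Hspa1b, Hsph1 and Dnaja1 separate the lines on every array, while Hspb1 differs between the sets of replicates within every group.

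After OVA the same comparison called 21 of 75 members, 17 lower and 4 higher on arrays titled BALB-RAG; over all tested genes 23.8% were called, 12.1% lower and 11.6% higher, against 22.7% and 5.33% of members. The median member difference was −0.19 and that of all genes 0.01. Hspa1b read 8.60, 8.71, 7.62 and 8.39 in BALB-RAG after OVA, against 11.57, 11.25, 11.02 and 9.01 in BALB/c after OVA. The groups did not overlap, although replicate 4 of BALB/c came near. Its difference was −2.38 ± 0.44 (limma adjusted p = 0.000943). Hsph1 read 8.64, 8.57, 8.09 and 8.98 in BALB-RAG after OVA, against 10.47, 10.63, 10.46 and 9.65 in BALB/c after OVA, again without overlap (−1.73 ± 0.26, adjusted p = 0.000183).

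Dnaja1 (−0.99 ± 0.18, adjusted p = 0.000891), Hsp90aa1 (−0.61 ± 0.13, 0.00231), Hspa4l (−0.49 ± 0.14, 0.018) and Hspa8 (−0.45 ± 0.13, 0.0181) were also lower after OVA by limma. Hspa4l lost its call without any 1 of 3 arrays, which were BALB-RAG OVA replicates 2 and 3 and BALB/c OVA replicate 2 (adjusted p up to 0.0606). Dnajb1 (−0.48 ± 0.26, adjusted p = 0.206) and Dnaja4 (0.14 ± 0.20, 0.665) were not called after OVA. A second Dnajb1 probe set differed by −0.81, and other Dnaja4 probe sets by 0.04 and −0.08. Without BALB-RAG OVA replicate 2, the array with T cell transcripts, 21 members were called, 19 of them as before.

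In a grouping by compartment that was made with the values known, 13 tested members were cytosolic and heat-inducible. After PBS 8 of them fell and 0 lay above 0, with a median of −1.03; after OVA 7 fell, with a median of −0.45. The 7 include Hspa4 (−0.45 ± 0.14, limma adjusted p = 0.0276), whose other probe sets differed by 0.09 and 0.15. Bag3, a BAG cochaperone that is also a textbook Hsf1 target, was not called in either (−0.28 ± 0.22 after PBS, adjusted p = 0.618; −0.15 ± 0.22 after OVA, 0.694). Over all tested genes 1.94% were lower after PBS and 12.1% after OVA. The HSP90 partners and heat shock regulators with other names, a list of 13 tested genes chosen with earlier results known, held 2 that fell in both comparisons. They were Stip1, which links HSP70 to HSP90 (−1.06 ± 0.18 after PBS, adjusted p = 0.0042; −0.83 ± 0.18 after OVA, 0.00353), and Ahsa2, a relative of an HSP90 ATPase activator (−1.18 ± 0.23, 0.00977; −0.94 ± 0.23, 0.0067). The remaining 11 were not called.

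Markers of other tissues moved with the line. The adipose list (mean log2 level of 2 genes) read 9.03 to 11.08 and 9.03 to 11.53 on the BALB-RAG arrays, against 5.61 to 7.54 and 6.96 to 9.46 in BALB/c, after OVA and PBS in that order. The cardiac and vein muscle list (6 genes) read 9.0 to 10.88 and 8.53 to 11.30 on the BALB-RAG arrays, against 6.80 to 7.79 and 8.17 to 8.75 in BALB/c, after OVA and PBS in that order. The B cell list (5 genes) was lower on the PBS arrays titled BALB-RAG, 4.48 to 5.06 against 5.46 to 5.89 in BALB/c. In BALB-RAG after PBS, replicate 3 had the lowest cardiac list of its group (8.53), with the adipose list at 9.03. It held 8.74 for Hspa1b and 9.08 for Hsph1, the highest of its group for both. In BALB-RAG after OVA, replicate 3 also had the lowest cardiac list of its group (9.0), with the adipose list at 9.03. There Hspa1b (7.62) and Hsph1 (8.09) were instead the lowest of the group. The part of these tissues in the chaperone differences was not tested.

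Exposure to OVA was compared with PBS within each line. In BALB/c, 4 of 75 members rose and 5 fell (limma adjusted p under 0.05), 12% of members; over all tested genes 15.5% were called, 8.73% up and 6.78% down, a share no higher than that of genes at large. With quantile normalization 4 rose and 8 fell, and the share of all genes called in that fit is not given here. The falls were in the cytosolic set and in 1 ER enzyme, and the rises were in ER and cytosolic members.

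Dnaja4, a cytosolic J protein, read 8.08, 8.08, 8.37 and 8.08 in BALB/c after OVA, against 8.81, 8.84, 9.23 and 8.90 in BALB/c after PBS (−0.79 ± 0.20, limma adjusted p = 0.0113). The exposures did not overlap. Hsp90aa1 read 12.05, 12.01, 11.92 and 11.79 in BALB/c after OVA, against 12.26, 12.62, 12.50 and 12.47 in BALB/c after PBS, also without overlap (−0.52 ± 0.13, adjusted p = 0.0109). Hspa4l fell by 0.59 (SE 0.14, adjusted p = 0.00886) and Fkbp4, an HSP90 cochaperone of steroid receptors, by 0.67 (SE 0.20, 0.0313). Fkbp4 lost its call in 6 of the 16 fits with 1 array left out (adjusted p up to 0.09).

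The members with the largest line differences were not called here. Hspa1b read 11.57, 11.25, 11.02 and 9.01 in BALB/c after OVA, against 11.17 to 11.99 after PBS (−0.90 ± 0.44, adjusted p = 0.204), and replicate 4 lay well below the other 3. Hsph1 (−0.55 ± 0.26, 0.192) and Dnaja1 (−0.47 ± 0.18, 0.102) were not called over all arrays, although Dnaja1 was with a term for the replicate sets (0.0266). Both were near 0 within replicates 1 and 2 (−0.04 and −0.15), and lower within replicates 3 and 4 (−1.05 and −0.79). Dnajb1 (−0.77 ± 0.26) missed the threshold at an adjusted p of 0.0578.

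The small heat shock protein Hspb1, which holds unfolded proteins without ATP, shows how the replicate sets enter. It read 10.37, 10.56, 9.74 and 9.43 in BALB/c after OVA, against 11.24, 11.72, 10.58 and 10.56 in BALB/c after PBS. The exposures met at 10.56 without overlapping, and the difference over all arrays was not called (−1.0 ± 0.40, limma adjusted p = 0.109). It was −1.02 in replicates 1 and 2 alone (adjusted p = 0.0131) and −0.99 in replicates 3 and 4 alone (0.0417), and it was called with a term for the sets (0.000352). With that term 18 members were called in BALB/c, 8 up and 10 down, or 24% of members against 25% of all tested genes. In the other line Hspb1 read 10.60, 10.75, 9.54 and 10.08 in BALB-RAG after OVA, against 10.66, 10.76, 9.20 and 9.39 in BALB-RAG after PBS (0.24 ± 0.40, adjusted p = 0.988).

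On arrays titled BALB-RAG, OVA and PBS differed in 0 of 75 members (limma), while 0.165% of all tested genes were called. The difference was −0.04 (95% interval −0.61 to 0.53) for Hsph1, −0.19 (−0.58 to 0.21) for Dnaja1 and 0.05 (−0.91 to 1.01) for Hspa1b. The 5 members at an unadjusted p under 0.05 were Hspa2 (0.34 ± 0.13, adjusted p = 0.456), Fkbpl (−0.56 ± 0.22, 0.515), Fkbp5 (1.15 ± 0.47, 0.543), Pdia5 (−0.38 ± 0.16, 0.545) and Bag2 (−0.46 ± 0.19, 0.554).

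The difference between the OVA responses of the lines (BALB-RAG minus BALB/c) was called for 2 of 75 members, both positive, against 8.49% of all tested genes, 3.86% positive and 4.63% negative. For Dnaja4 it was 1.14 ± 0.28 (limma adjusted p = 0.0185): the response was 0.34 ± 0.20 in BALB-RAG and −0.79 ± 0.20 in BALB/c. Dnaja4 read 8.52, 8.15, 7.81 and 8.69 in BALB-RAG after OVA and 7.70, 8.23, 7.64 and 8.23 in BALB-RAG after PBS, groups that overlapped. Its other probe sets gave responses of 0.02 and 0.01 in BALB-RAG and −0.95 and −0.81 in BALB/c. For Hspa4l the difference of responses was 0.69 ± 0.20 (adjusted p = 0.0423), and 13 of the 16 fits with 1 array left out lost that call (adjusted p up to 0.0887). With a term for the replicate sets 9 members were called, 3 positive and 6 negative. That was 12% of members against 16.7% of all tested genes. With quantile normalization 1 member was positive and 1 negative.

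In the fit without a replicate term, the difference of OVA responses was called for 0 of 21 tested ER members, against 8.49% of all tested genes. The median of the 21 was −0.15. Between the lines, 7 were lower and 2 higher on arrays titled BALB-RAG after OVA, with a median of −0.34, and 1 was lower after PBS, with a median of −0.18. Over all tested genes the shares called were 23.8% after OVA and 3.9% after PBS. Pdia6, a disulfide isomerase that also restrains the stress sensor Ire1, read 9.64, 9.39, 9.27 and 9.65 in BALB-RAG after OVA, against 10.58, 10.57, 10.21 and 10.30 in BALB/c after OVA (−0.93 ± 0.15, limma adjusted p = 0.000282). Hspa5, the master HSP70 of the ER, read 12.13, 12.13, 12.31 and 12.37 in BALB-RAG after OVA, against 12.99 to 13.03 on the 4 BALB/c OVA arrays (−0.77 ± 0.15, adjusted p = 0.00111). For both genes every array titled BALB-RAG lay below every BALB/c array.

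Dnajb11, an ER J protein that works with Hspa5, read 8.22, 8.05, 8.16 and 8.13 in BALB-RAG after OVA and 8.11, 8.07, 8.21 and 8.17 in BALB-RAG after PBS. In BALB/c it read 9.18, 9.27, 8.68 and 8.96 after OVA and 8.55, 8.59, 8.15 and 8.39 after PBS. It was flat on arrays titled BALB-RAG, and higher after OVA than after PBS on all 4 BALB/c arrays. The line difference after OVA was −0.88 ± 0.14 (limma adjusted p = 0.000234) and the BALB/c response 0.61 ± 0.14 (0.00654), with a difference of responses of −0.60 ± 0.19 that was not called (0.0683).

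Pdia4, another disulfide isomerase, read 7.60, 7.25, 7.0 and 7.34 in BALB-RAG after OVA and 6.98, 6.84, 7.37 and 7.21 in BALB-RAG after PBS. In BALB/c it read 8.01, 8.72, 7.90 and 8.26 after OVA and 7.26, 7.78, 7.51 and 7.38 after PBS. The BALB/c response was 0.74 ± 0.19 (limma adjusted p = 0.015; 0.0562 without BALB/c OVA replicate 2), and the line difference after OVA −0.92 ± 0.19 (0.00218). Sec61a1, the pore of the translocon (−0.55 ± 0.12, 0.00273), Pdia3, which acts on glycoproteins (−0.54 ± 0.14, 0.00915), and Dnajb9, a J protein that represses Ire1 (−0.39 ± 0.12, 0.0223), completed the 7 ER members that were lower after OVA.

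**Figure D2:**
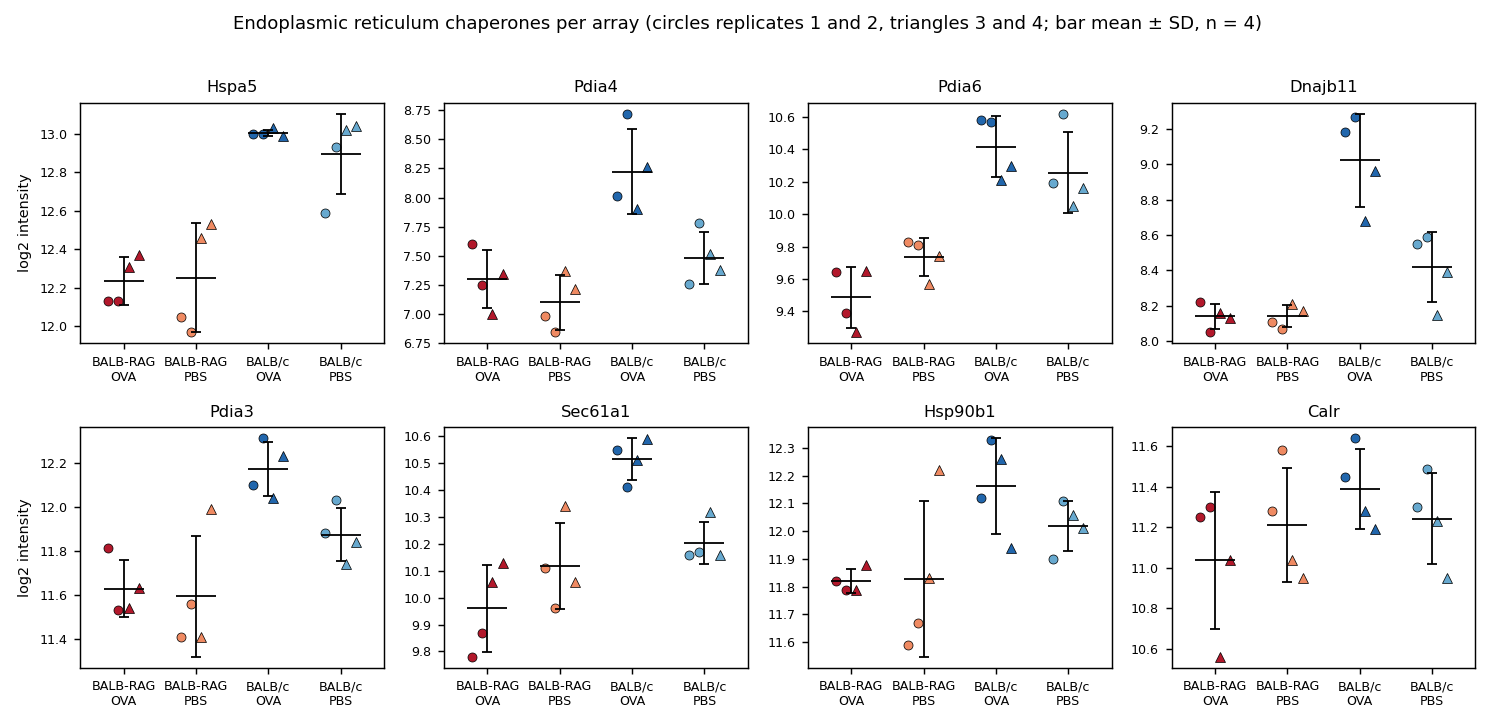
Log2 intensity of 8 ER members on each array (circles, replicates 1 and 2; triangles, replicates 3 and 4), with group mean ± SD (n = 4); groups run BALB-RAG OVA, BALB-RAG PBS, BALB/c OVA, BALB/c PBS. Hspa5 lies between 12.13 and 12.37 on the BALB-RAG OVA arrays and between 12.99 and 13.03 on the BALB/c OVA arrays, while the groups of Calr overlap.

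After PBS Hspa5 was the ER member called: it read 12.05, 11.97, 12.46 and 12.53 in BALB-RAG after PBS, against 12.59, 12.93, 13.02 and 13.04 in BALB/c after PBS (−0.64 ± 0.15, limma adjusted p = 0.021). The groups came close without overlapping, and 5 of the 16 fits with 1 array left out lost the call (adjusted p up to 0.0707). Its response to OVA was near 0 in both lines, −0.02 (95% interval −0.33 to 0.30) in BALB-RAG and 0.11 (−0.21 to 0.43) in BALB/c. The lectin chaperone Calr (−0.36 on the chosen probe set after OVA) was not called in any comparison, and neither was Hsp90b1. Between the lines after OVA Hsp90b1 differed by −0.34, from 11.79 to 11.88 in BALB-RAG and 11.94 to 12.33 in BALB/c, without overlap. Between OVA and PBS in BALB/c it differed by 0.14 (limma adjusted p = 0.574).

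Fkbp9 and Sec61a2 ran the other way. Fkbp9, an ER prolyl isomerase, read 9.07, 9.22, 9.35 and 9.40 in BALB-RAG after OVA and 9.28, 9.62, 9.29 and 9.60 in BALB-RAG after PBS. In BALB/c it read 8.56, 8.36, 8.71 and 8.88 after OVA, against 9.02, 8.98, 9.20 and 9.36 after PBS. It fell by 0.51 with OVA in BALB/c (SE 0.14, limma adjusted p = 0.0235; the call was lost in 4 of 16 fits with 1 array left out, adjusted p up to 0.0879), and was higher by 0.64 ± 0.14 on arrays titled BALB-RAG after OVA (0.0043). Sec61a2, the second Sec61 alpha subunit, was higher by 0.70 ± 0.19 after OVA (0.0138), and in BALB/c it missed the threshold (−0.58 ± 0.19, 0.0506), though not with a term for the replicate sets (0.036).

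Secretory pathway genes with other names were grouped in 4 lists chosen with earlier results of these data known. Of 12 ER folding enzymes, 6 rose with OVA in BALB/c and 0 fell, with a median of 0.33 against 0 over all genes, of which 8.73% rose and 6.78% fell. Agr2, the disulfide isomerase of mucin-producing cells and also a goblet cell marker, rose by 2.73 ± 0.47 (limma adjusted p = 0.000991), the oxidase Ero1b by 0.82 ± 0.17 (0.00462) and Txndc5 by 0.76 ± 0.17 (0.0049). The same 6 genes were lower on arrays titled BALB-RAG after OVA, where 12.1% of all tested genes were lower and 11.6% higher, among them Ero1b (−1.68 ± 0.17), which was also lower after PBS (−1.03 ± 0.17, 0.0039), and Erp44 (−0.46 ± 0.11).

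Of 12 genes of ER-associated degradation, 2 rose with OVA in BALB/c, Edem1 by 1.75 ± 0.35 (limma adjusted p = 0.00272) and Edem2 by 0.74 ± 0.21 (0.028), both of which recognise misfolded glycoproteins. On arrays titled BALB-RAG 5 of the 12 were lower after OVA, among them Edem1 (−2.02 ± 0.35), Sel1l (−0.56 ± 0.15) and Vcp (−0.34 ± 0.11). Of 20 genes of signal recognition, signal cleavage and glycosylation, 0 changed in BALB/c at the adjusted threshold, and after OVA 1 was lower on arrays titled BALB-RAG, Rpn1 (−0.37 ± 0.12, 0.0362). Of 10 sensors and regulators of the unfolded protein response, 0 rose and 1 fell in BALB/c: Herpud1, an ER membrane protein, by 0.44 (SE 0.14, 0.0391), with a difference of responses of 0.86 ± 0.19 (0.0125). After OVA 2 of the 10 were higher on arrays titled BALB-RAG, Herpud1 (0.46 ± 0.14, 0.022) and the stress sensor Atf6 (0.54 ± 0.16, 0.0208), and 1 was lower, Creb3l1, a membrane-bound transcription factor (−0.94 ± 0.27, 0.018). Xbp1, the factor that drives the ER set in plasma cells, was not called (0.03 ± 0.17 with OVA in BALB/c, 0.935). Over all tested genes 8.73% rose and 6.78% fell with OVA in BALB/c. After OVA 12.1% of all tested genes were lower and 11.6% higher on arrays titled BALB-RAG. Whether any of these lists differed from genes at large was not tested.

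Markers of secretory and immune cells moved with these differences. The plasma cell list (6 genes) read 5.03, 8.44, 4.98 and 5.13 after OVA and 6.80 to 8.05 after PBS on the BALB-RAG arrays, against 8.60 to 10.07 and 6.57 to 7.60 in BALB/c. The goblet cell list (5 genes) read 4.47 to 5.56 and 4.58 to 6.06 on the BALB-RAG arrays, against 9.08 to 9.56 and 4.44 to 5.87 in BALB/c, after OVA and PBS in that order. The macrophage and dendritic cell list (5 genes) was likewise highest in BALB/c after OVA, 9.94 to 10.95, against at most 8.57 elsewhere. On BALB-RAG OVA replicate 2 the plasma cell list was 8.44. There Hspa5 read 12.13, Dnajb11 8.05 and Pdia4 7.25, within or below the range of the other 3 arrays of that group. Other members ran the other way: Calr read 11.30 against 10.56 to 11.25, and Fkbp11, near background, 4.85 against 3.90 to 4.38. The part of these cells in the ER differences was not tested.

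**Figure D3:**
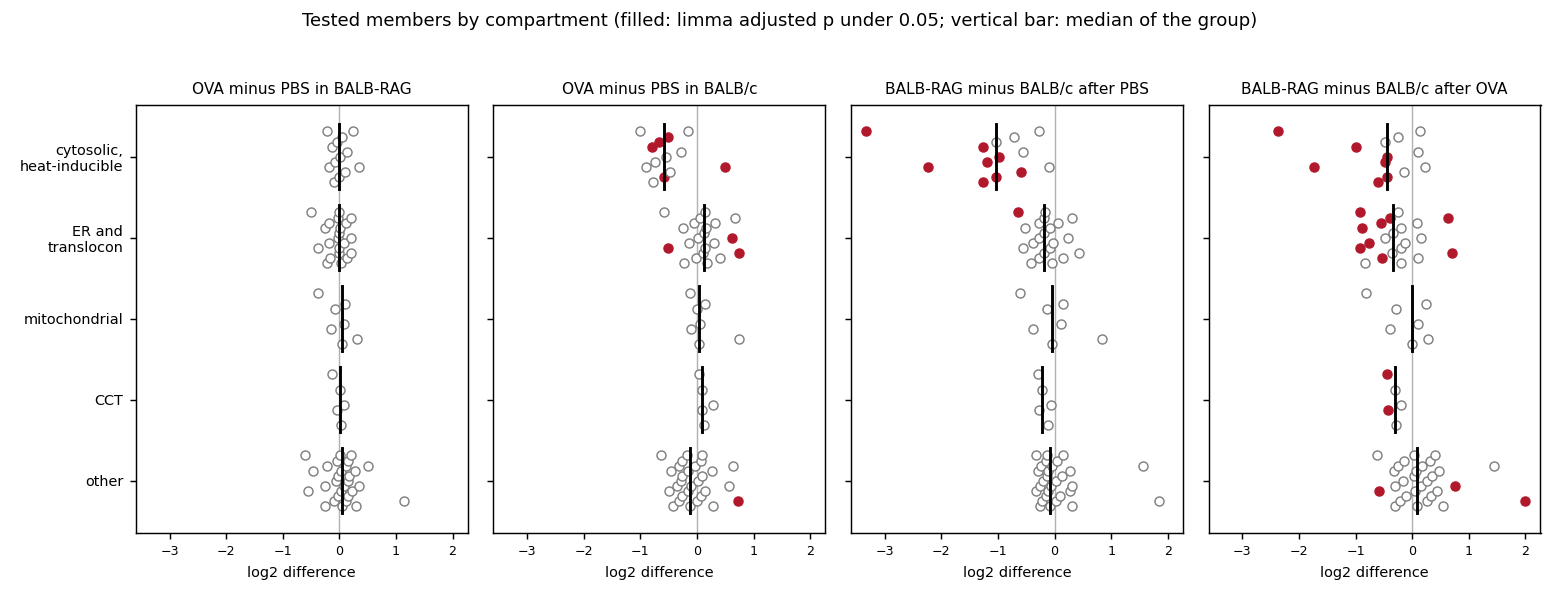
Log2 difference of each of the 75 tested members in 4 comparisons, by compartment, with called members filled (limma adjusted p under 0.05) and the median of each compartment as a bar. Compartments were drawn with the values known. Filled points lie left of 0 in the cytosolic group after PBS (8 of 13), where 1.94% of all tested genes were lower. After OVA they lie there in the cytosolic (7 of 13) and ER (7 of 21) groups, where 12.1% of all tested genes were lower. Also after OVA, 2 ER members and 2 of the other members are filled right of 0. No point is filled in BALB-RAG for OVA against PBS.

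Outside the heat-inducible group, Dnajc2, a J protein bound to the ribosome, read 7.44, 7.64, 7.30 and 7.84 in BALB/c after OVA, against 6.93, 7.01, 6.72 and 6.69 in BALB/c after PBS (0.72 ± 0.14, limma adjusted p = 0.00277). The exposures did not overlap. It was lower by 0.58 (SE 0.14, 0.00741) on arrays titled BALB-RAG after OVA. Hspa4, an HSP110 family member counted in the heat-inducible group, rose by 0.49 ± 0.14 in BALB/c (0.027), but another of its 3 probe sets differed by −0.31 and 5 of 16 fits with 1 array left out lost the call (adjusted p up to 0.0801), so its direction is uncertain.

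The CCT chaperonin, which folds actin and tubulin, had 5 tested subunits. After OVA 2 were lower on arrays titled BALB-RAG, where 12.1% of all tested genes were lower. They were Cct3 (−0.44 ± 0.11, limma adjusted p = 0.00614) and Cct6a (−0.42 ± 0.10, 0.00698). All 5 lay below 0 in both line comparisons, with medians of −0.31 after OVA and −0.23 after PBS, and none was called after PBS. Of 7 mitochondrial members, including Hspd1 and its lid Hspe1, 0 were called in any of the 5 comparisons. Over all tested genes the shares called ran from 0.165% to 23.8%, and 7 members are few to set against them. Hspd1 differed between the lines by −0.39 ± 0.14 after OVA (limma adjusted p = 0.0655) and by −0.38 ± 0.14 after PBS (0.183). Hspe1 read 7.49, 7.10, 5.89 and 6.30 in BALB-RAG after OVA, against 8.27, 8.41, 6.46 and 6.90 in BALB/c after OVA. The replicate sets differed more than the lines did.

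Dnajc28, a J protein of little known function, read 5.45, 5.14, 5.11 and 4.86 in BALB-RAG after OVA, against 4.72, 4.36, 4.21 and 4.25 in BALB/c after OVA (0.76 ± 0.23, limma adjusted p = 0.0256). The groups did not overlap, but 4 of 16 fits with 1 array left out lost the call (adjusted p up to 0.0811). The 5 BAG members had 0 calls in the 5 comparisons. They are too few to set against the 0.165% to 23.8% of all tested genes called there.

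Hspb7, a small heat shock protein of heart and skeletal muscle, had the largest called rise of any member between the lines after OVA. It read 7.77, 8.37, 6.70 and 7.79 in BALB-RAG after OVA, against 5.19, 5.73, 5.38 and 6.32 in BALB/c after OVA (2.00 ± 0.50, limma adjusted p = 0.00819). The groups did not overlap. After PBS it read 8.93, 7.55, 6.23 and 8.92 in BALB-RAG, against 6.45, 6.20, 5.77 and 5.87 in BALB/c, which overlapped (1.84 ± 0.50, 0.054). Hspb6, a muscle relative, read 7.85, 7.01, 6.73 and 7.82 in BALB-RAG after OVA, against 6.13, 6.11, 5.33 and 6.03 in BALB/c after OVA (1.45 ± 0.60, 0.0968). In BALB-RAG after PBS, where Hspb6 read 8.89, 8.31, 6.08 and 8.57, the cardiac and vein muscle list read 11.30, 9.99, 8.53 and 10.98 on the same arrays. The skeletal muscle list (5 genes) was above 9 on 4 arrays, BALB-RAG OVA replicates 1 and 4 (9.13 and 9.06), BALB-RAG PBS replicate 2 (9.71) and BALB/c PBS replicate 1 (9.41), and at most 5.04 on the others. The part of muscle tissue in the Hspb7 difference was not tested.

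Fkbp5, which textbooks name as a target of glucocorticoids, had a wide spread. It read 8.61, 9.15, 9.24 and 8.59 in BALB-RAG after OVA, against 7.88, 8.24, 6.94 and 7.92 in BALB-RAG after PBS, without overlap (1.15 ± 0.47, limma adjusted p = 0.543). In BALB/c it read 8.32, 8.34, 8.97 and 8.09 after OVA, against 8.52, 9.31, 6.62 and 7.01 after PBS (0.57 ± 0.47, 0.507). The PBS arrays of BALB/c split by replicate set, and it was called in neither line.

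**Figure D4:**
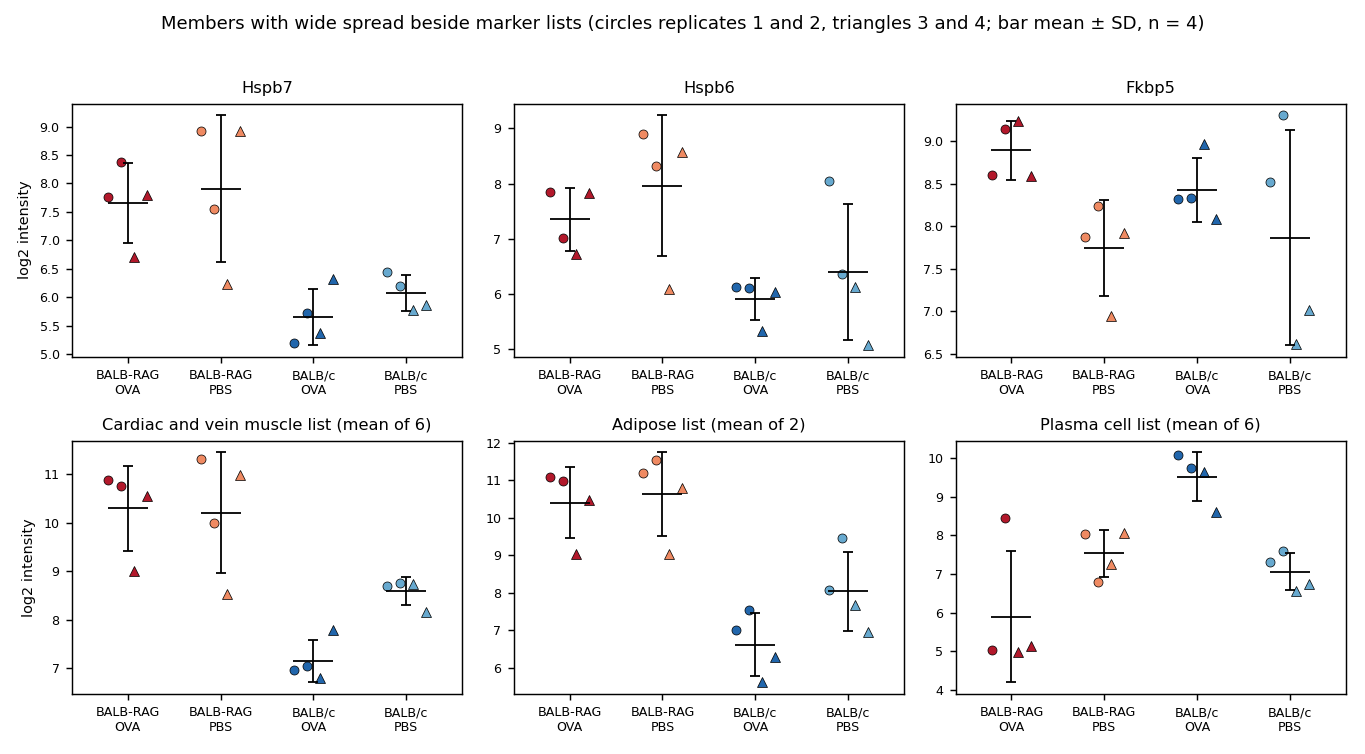
Log2 intensity on each array of Hspb7, Hspb6 and Fkbp5 (top) and mean log2 level of 3 marker lists (bottom), with group mean ± SD (n = 4); groups run BALB-RAG OVA, BALB-RAG PBS, BALB/c OVA, BALB/c PBS. Replicate 3 is the lowest of its group in both BALB-RAG groups for Hspb7, Hspb6 and the cardiac and vein muscle list.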

How the data were processed

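Per the labels' protocols, TRIZOL was used to extract RNA from whole lung, and biotin-labelled cRNA was put on Affymetrix arrays. Per the submitters' processing notes the deposited values were made with GCRMA, in a version that those notes leave out; the deposited table holds linear intensity (2.32 to 35181) for 45101 probe sets, and log2 was taken without further normalisation. Precision is limited by having 4 arrays in each group.

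Probe set labels were realigned in 3 ranges holding 14300 labels: values for the first were read 64 rows above, for the second 47 rows below and for the third 16168 rows below. The rule supplied for the members gave 47 rows above for the second range. This was changed after the data were seen, because probe sets of the same gene with a member in that range had a median correlation of 0.609 (1026 pairs) at 47 rows below, 0.008 (718 pairs) at 47 rows above and 0.091 as deposited; the neighbouring offsets tried gave at most 0.164. A single symbol stood on 13146 labels; 366 with several were left out, 788 had none, and RefSeq changed 0.

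A gene was represented by its brightest probe set on average, and tested if that was over log2 4 on at least 4 arrays. The fit used limma 3.58.1 and R 4.3.3 (4 group means, 16 arrays, empirical Bayes), adjusted by Benjamini-Hochberg over 7276 genes at 0.05, and tested on simulated data. Figures were drawn with matplotlib 3.10.9.

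Named were up to 12 rises and 12 falls per comparison, all members of counts of 5 or fewer, per role group the member with the highest mean and that with the smallest p in BALB/c, and up to 4 genes per list. Members and lists were chosen with earlier results of these data known, and the compartments with the values known. Bag3, Cct3, Cct6a, Dnajb9, Dnajc28, Fkbp5, Hspa2, Hspb6, Hspe1, Pdia5, Fkbpl, Rpn1 and Xbp1 were, where outside that rule, named after their values were seen.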

Additional observations from a re-analysis of the deposited data

Results flagged for a closer look

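Among 120 groups of 4 arrays (30 named members in 4 groups), 5 had 1 array far from the other 3, by a measure that chance meets in about 1 of 20 groups. Cct2 read 10.41 on replicate 3 of BALB-RAG after PBS, with the others at 10.86 to 10.90. Dnajb1 read 7.95 on replicate 1 of the same group, with the others at 8.33 to 8.41. Dnaja4 read 8.37 on replicate 3 of BALB/c after OVA, with the others at 8.08. Dnaja1 read 11.57 on replicate 2 of BALB/c after PBS (others 11.48 to 11.49) and Sec61a1 10.32 on replicate 3 of that group (others 10.16 to 10.17); in both the gap was small and the other 3 arrays nearly equal.

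In the fit without a replicate term, the test of the difference of OVA responses called Dnaja4 and Hspa4l. The values were 1.14 and 0.69 log2 units (BALB-RAG minus BALB/c).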

How the results depend on the processing

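Of 36 called results of named members, 27 kept the call in each of the 16 fits with 1 array left out, and 7 kept it in all 30 alternatives on realigned labels, where 0 of the 36 changed sign. Of the results not called, Bag1 (0.04 in replicates 3 and 4 alone) and Hspd1 (0.01 in replicates 1 and 2 alone) changed sign in BALB/c. The number of members called with 1 array left out ran from 6 to 11 for OVA against PBS in BALB/c, from 1 to 3 for the difference of responses, from 7 to 12 for BALB-RAG against BALB/c after PBS and from 16 to 23 after OVA. It was 0 throughout for OVA against PBS in BALB-RAG, in all alternatives. Same-numbered arrays did not pair clearly: their deviations correlated by 0.025 to 0.497, with 23 of 24 pairs over 0.1, and 6 of 16 arrays correlated best with their own number. With replicate number as a block, members called numbered 17 in BALB/c (9 up, 8 down), 9 for the difference of responses (3 up, 6 down), 17 after PBS (2 up, 15 down) and 30 after OVA (6 up, 24 down). Over all tested genes the block called 24.2%, 15.8%, 8.37% and 33.7%. With the 2 replicate sets as a term they numbered 18, 9, 17 and 31, beside 25%, 16.7%, 8.73% and 34.8% of all genes. In replicates 3 and 4 alone they numbered 4, 0, 2 and 8, where fewer arrays were fitted. For replicates 3 and 4 alone, left-out arrays, quantile normalization and other label readings, no share of all genes is given beside the counts. A change in those counts may be one of the whole fit. In BALB/c, Dnaja1, Hspb1, Hspb8 and Sec61a1 became called both with the block (adjusted p = 0.0369, 0.00062, 0.0107 and 0.0344) and with the set term (0.0266, 0.000352, 0.0205 and 0.024) in limma, Cct2 with the block alone (0.0363) and Sec61a2 with the set term alone (0.036). Among the 51 results picked by the naming rule, no other call changed under either. Results quoted outside that rule, such as Hspb7 after PBS and the difference of responses of Dnajb11, were not checked gene by gene. The counts above show that further members became called in the line comparisons and for the difference of responses. The difference of responses gave 1 member when every probe set was its own feature or when all rows were fitted.

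With labels as deposited, which changes the values a gene name points to, 4, 3 and 12 members were called for the difference of responses, after PBS and after OVA, of which 0, 0 and 4 were also called with realigned labels. Signs then turned for Dnajb11 (−0.82), Fkbp4 (0.06), Hsp90aa1 (0.04), Fkbp9 (0.58), Hspb8 (0.93), Bag1 (0.1), Fkbp1a (0.25), Hsp90b1 (−0.2), Hspa8 (0.04), Hspb1 (0.06), Hspd1 (0.24) and Pdia3 (−0.19) in BALB/c, for Hsph1 (0.13), Dnaja1 (0.26) and Dnaja4 (0.03) after PBS, and for Hspa1b (0.09), Hsph1 (0.25), Dnaja1 (0.13), Dnajb11 (1.51) and Pdia3 (0.08) after OVA. With the second range read 47 rows above, an alternative added after seeing the data, 5 members were called after PBS, and Fkbp9 (0.11), Hspa8 (0.42), Hspb1 (0.07) and Hspd1 (0.11) in BALB/c and Hsph1 after PBS (0.13) and after OVA (0.37) turned. Signal near background limits 5 members that were not tested. In Bag4, Dnajc27, Fkbp11 and Fkbpl some arrays lay at or under log2 4.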

Other observations

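Several members differed the same way between replicates 1 and 2 and replicates 3 and 4 in all 4 groups. The mean log2 difference (replicates 1 and 2 minus 3 and 4) was 1.40 for Hspe1, the lid of mitochondrial HSP60, 1.03 for Sec61b, a small translocon subunit, and 1.03 for Dnajc15, a mitochondrial J protein. It was 1.01 for Hspb1, 0.89 for Fkbp8 and 0.88 for Dnajc4. Canx, the membrane lectin chaperone, ran the other way (−0.54), as did Dnajc13 (−0.42). Sec61b read 9.82, 9.86, 8.92 and 8.94 on replicates 1 to 4 of BALB-RAG after OVA, against 10.71, 10.78, 9.58 and 9.78 in BALB/c after OVA. Within each set the BALB/c arrays were higher, while over all arrays the difference was −0.83 ± 0.39 and was not called (limma adjusted p = 0.141). The labels name nothing that separates the sets.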
